A study of Arabidopsis thaliana with 6 samples.

Results

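Plants detect microbes outside the cell with pattern receptors, kinases of the plasma membrane whose outer domain binds a microbial molecule or a danger signal released by the plant itself. Receptors with leucine-rich repeats pair with the short co-receptor kinase BAK1 on binding, receptors with LysM domains gather around CERK1, and cytoplasmic kinases such as BIK1 carry the signal on to calcium influx, reactive oxygen and MAP kinases. The 10 genes described here were taken by name and matched by gene identifier. They are the receptors FLS2, EFR and LORE of bacterial patterns, the LysM kinases CERK1, LYK4 and LYK5 of chitin perception, the receptors PEPR1 and PEPR2 of plant Pep peptides, the co-receptor BAK1 and the cytoplasmic kinase BIK1. All 10 were found among the 27371 genes of the deposited table, and all 10 passed the filter of a mean of at least 1 FPKM (fragments per kilobase of transcript and per 1e6 mapped fragments).

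RNA was sequenced from intact Arabidopsis thaliana seedlings of ahl13-1 (SALK_014014), a line with an insertion in AHL13, which encodes a nuclear protein with AT-hook motifs. In 3 libraries the seedlings, 14 days old and grown on sugar-free plates in long days, had received a spray of Pst hrcC (OD600 of 0.002) and were taken 24 hours later. The other 3 libraries were controls of the same line and age, and whether they had a mock spray is not given in the labels. Pst hrcC is a strain of the bacterium Pseudomonas syringae pv. tomato that lacks a working type III secretion system and so presents its patterns without injecting effectors. Every library carries ahl13-1, a single insertion line, and wild-type seedlings were not analysed here, so each difference is one of treatment within the mutant. The study is about AHL13 and pattern-triggered immunity. The comparison described here asks how far the transcripts of the receptors that start this immunity differed 24 hours after the spray.

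The libraries were of unequal depth. The lowest FPKM values of 6327 genes with 1 annotated transcript of 1500 to 4000 bases placed it at about 33, 28 and 5.6 (in units of 1e6 fragments) for Pst hrcC replicates 1, 2 and 3, and at about 6.9, 35 and 25 in the same units for control replicates 1, 2 and 3. Markers of root (15 genes), guard cell (5) and photosynthetic tissue (6) were all above 0 in every library. Of 16923 genes tested, 49 changed (48 rose, 1 fell).

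None of the 10 genes passed the test. With limma on log2(FPKM + 1) and Benjamini-Hochberg adjustment over all tested genes, 0 of 10 had an adjusted p under 0.05, where 0.29% of all tested genes did (0.284% higher and 0.00591% lower). At an unadjusted p under 0.05 there was 1 of 10 higher, PEPR2, and 0 lower, where 5.18% and 1.63% of all tested genes were. PEPR2 passed the filter only through its treated libraries, so this count is not independent support for a rise. The smallest log2 difference called among all tested genes was 1.28, larger than that of any of the 10. The absence of calls therefore does not show that these genes were unchanged. The log2 difference was positive for 9 of the 10 genes and negative for FLS2. Its median over the 10 was 0.15, beside 0.04 over all tested genes, of which 57.5% were positive. For 9 of the 10 the 95% interval of the log2 difference lay wholly between -1 and 1. The exception was PEPR2 with an upper bound of 1.09. These bounds do not limit the fold change in FPKM itself, because adding 1 before taking logs shrinks the differences of weakly expressed genes. In PEPR2 a log2 difference of 0.63 went with a ratio of 2.28 between the mean FPKM values. In whole seedlings fewer cells of a type and less RNA per cell cannot be told apart.

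**Figure D1:**
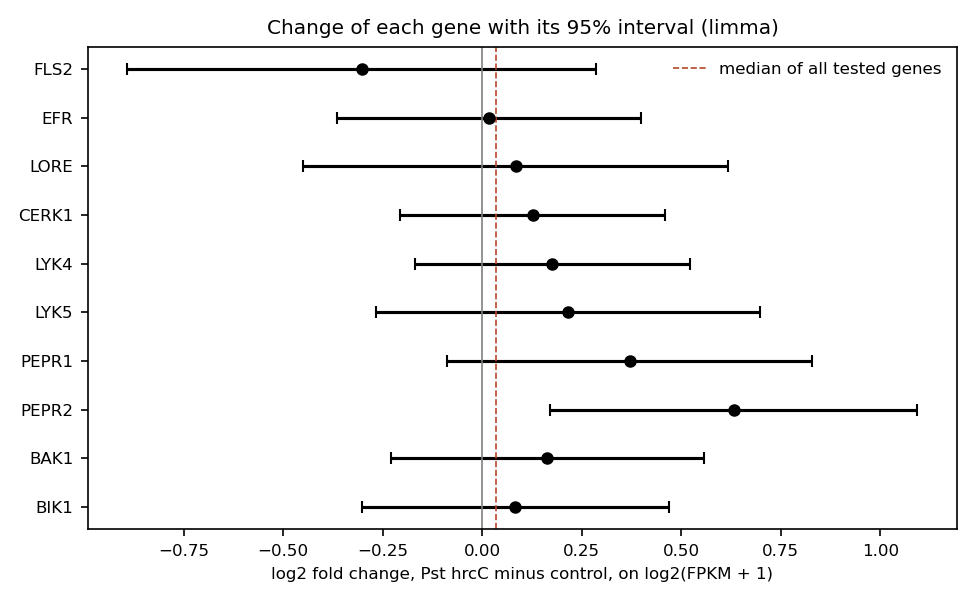
Log2 fold change of each gene, Pst hrcC minus control, on the log2(FPKM + 1) scale (points) with its 95% interval from limma (bars), beside the median of all 16923 tested genes (dashed line). The interval of PEPR2 (0.17 to 1.09) lies above 0, and those of the other 9 genes span 0.

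By level, BIK1, PEPR1 and BAK1 stood above the other 7 genes. Over the 6 libraries BIK1 averaged 7.41 ± 1.05 FPKM, PEPR1 6.87 ± 1.73 and BAK1 6.72 ± 0.96 (SD, n = 6). Below them came LYK4 at 3.97 ± 0.58, FLS2 at 3.10 ± 0.90, CERK1 at 2.87 ± 0.40 and LORE at 2.01 ± 0.61 FPKM (SD, n = 6). LYK5 at 1.53 ± 0.45, EFR at 1.38 ± 0.25 and PEPR2 at 1.34 ± 0.70 FPKM (SD, n = 6) were lowest. Only between BAK1 and LYK4 did neighbours in this order keep apart, with 4.91 FPKM as the lowest value of BAK1 and 4.74 FPKM as the highest of LYK4. The ranges of all other neighbours overlapped, although CERK1 was above LORE in all 6 libraries. BIK1 was higher than 76.6% of the genes in the table and PEPR2 higher than 42.2%. FPKM is scaled by transcript length, which allows a rough comparison of these levels. Each mean pools treated and control libraries. Strand is unknown, so the levels of BAK1, FLS2, EFR and PEPR2 may include reads of genes on the opposite strand.

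**Figure D2:**
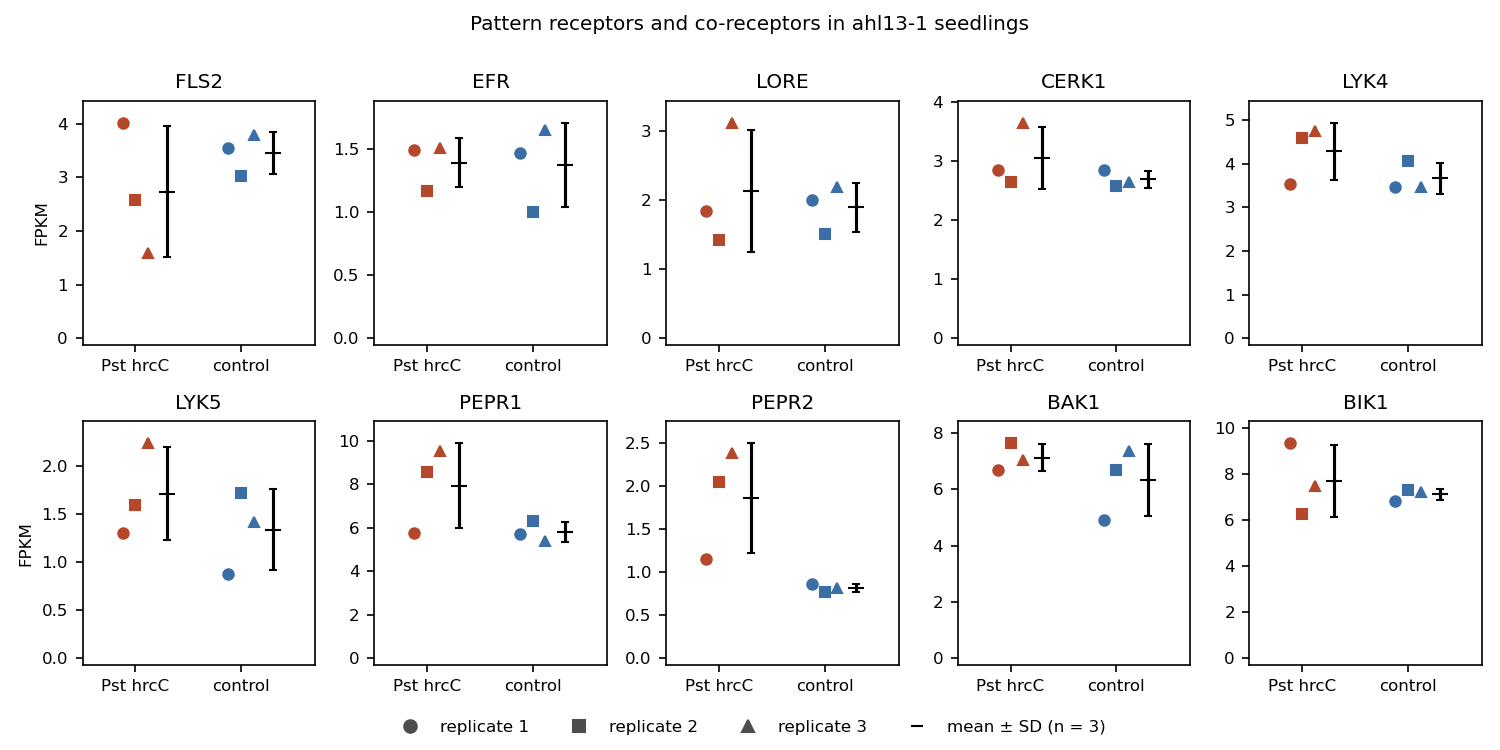
FPKM of the 10 genes in each library, Pst hrcC left and control right in every panel, with replicates 1, 2 and 3 as circles, squares and triangles and the mean ± SD (n = 3) in black. The groups are apart only for PEPR2, whose 3 Pst hrcC libraries (1.16 to 2.39 FPKM) lie above the 3 controls (0.772 to 0.858 FPKM).

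The Pep receptors had the largest positive differences of the 10. PEPR1 and PEPR2 are leucine-rich repeat kinases that bind Pep peptides, which are cut from PROPEP proteins in damaged or attacked tissue and amplify pattern responses. PEPR2 (AT1G17750) was at 1.16, 2.05 and 2.39 FPKM in Pst hrcC replicates 1, 2 and 3, against 0.858, 0.772 and 0.823 FPKM in control replicates 1, 2 and 3. All treated values were above all control values, as they were for 1 of the 10 genes and for 7.66% of all tested genes. All treated values were below all controls in 0 of the 10 genes and in 3.61% of all tested genes. The means of 1.87 ± 0.64 FPKM after Pst hrcC and 0.818 ± 0.043 FPKM in controls (SD, n = 3 each) had a ratio of 2.28. With all controls below 1 FPKM, PEPR2 was among the tested genes only through its treated libraries. Without the filter its limma adjusted p was 0.577. The log2 difference was 0.63 ± 0.19 (SE, limma p = 0.0148, adjusted p = 0.487), and an exact permutation test of the FPKM values gave p = 0.1, the smallest that 3 against 3 can give. PEPR2 is low enough for the pseudocount to set much of this value, which was 1.04 with a pseudocount of 0.1 and 0.23 with one of 5, passing in neither. It passed in 1 of 15 alternative fits, the one with array weights (log2 difference 0.75, limma adjusted p = 0.0424), in which 2.19% of all tested genes were called higher. That fit gave weights of 0.454, 1.85 and 0.888 to Pst hrcC replicates 1, 2 and 3 and of 0.432, 5.01 and 0.621 to control replicates 1, 2 and 3, so a single control library carried more weight than the 2 other controls together. The PEPR2 value in control replicate 1 had the fewest reads behind it and rests on about 22 fragments, a counting error of about 21%.

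PEPR1 (AT1G73080) was at 5.74, 8.55 and 9.52 FPKM after Pst hrcC, against 5.69, 6.32 and 5.40 FPKM in controls. Replicates 2 and 3 of the treatment were above every control, while treated replicate 1 lay within the control range. The means were 7.94 ± 1.96 FPKM after Pst hrcC and 5.80 ± 0.47 FPKM in controls (SD, n = 3 each). PEPR1 thus had a log2 difference amounting to 0.37 ± 0.19 (SE, limma adjusted p = 0.905). Leaving out Pst hrcC replicate 1 put the log2 difference at 0.56, and leaving out Pst hrcC replicate 3 put it at 0.24, with no call in either.

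Both Pep receptors thus showed the same order of treated libraries, with replicate 1 lowest and replicate 3 highest. This order is not particular to them. It was also that of LYK4 and LYK5, and of DORN1, RLK7, PBL1 and PBL2 in the lists below. Its share over all tested genes was not determined. Within a library PEPR1 exceeded PEPR2 by 1.64, 1.65 and 1.63 on the log2(FPKM + 1) scale in the Pst hrcC libraries, against 1.85, 2.05 and 1.81 in controls. The difference of -0.26 between the group means reached the smallest p of the exact permutation test (two-sided p = 0.1, 0.6 after adjustment over the 6 ratios tested). It was -0.63 with a pseudocount of 0.1 and 0.01 with one of 5, so its size and sign depended on the pseudocount.

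Reads cannot be assigned to strand from the sources used here, so reads of opposite-strand neighbours cannot be told apart. In the RefSeq annotation of TAIR10.1 PEPR2 overlaps 3 genes on the opposite strand, the protein-coding AT1G17760 and 2 long non-coding RNAs. AT1G17760 was at 0.807, 0.764 and 0.540 FPKM after Pst hrcC and at 0.822, 0.713 and 0.868 FPKM in controls. These values may themselves hold reads of PEPR2. The part of opposite-strand reads in the PEPR2 values was not tested. The non-coding RNAs are not in the table. FLS2, EFR and BAK1 each overlap 1 gene on the opposite strand. The neighbour of BAK1, AT4G33420, stood above BAK1 itself, at 13.6, 10.5 and 11.7 FPKM after Pst hrcC, against 13.3, 15.4 and 18.1 FPKM in controls (log2 difference -0.36, limma adjusted p = 0.831). Of all 50-base windows of the PEPR1 transcript 2.51% also occur in AT1G73066, a locus at 0.962 FPKM or less in every library, and the other 9 genes had no such window elsewhere in the genome.

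The precursors of the ligands had mostly positive differences too, and none passed. Of the 6 tested genes in the list of Pep precursors and the protease METACASPASE 4 (MC4), which frees Pep1, 0 were called with limma over all genes, and 3 were higher at an unadjusted p under 0.05, where 5.18% of all tested genes were. Their median log2 difference was 0.80 beside 0.04 over all tested genes, and 4 of the 6 had all treated values above all controls, as did 7.66% of all tested genes. PROPEP4 and PROPEP5 passed the filter only through the treated libraries, with control means of 0.420 and 0.438 FPKM. The filter thus tilts these counts and the median upward, and they are not independent support for a rise. PROPEP1 (AT5G64900) was at 2.84, 4.99 and 5.03 FPKM after Pst hrcC, against 1.84, 1.60 and 2.45 FPKM in controls (log2 difference 0.81 ± 0.22, SE, limma adjusted p = 0.389). PROPEP4 (AT5G09980) was at 0.879, 2.35 and 4.85 FPKM after Pst hrcC, against 0.380, 0.568 and 0.311 FPKM in controls (log2 difference 1.23 ± 0.39, SE, limma adjusted p = 0.509). In both of these, as in the Pep receptors and in LYK4 and LYK5, treated replicate 1 was the lowest of the 3.

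The remaining precursors, named so that the list is complete, had another order of libraries. PROPEP3 was at 14.9, 3.98 and 3.86 FPKM after Pst hrcC, against 3.04, 1.78 and 2.81 FPKM in controls (limma adjusted p = 0.787). PROPEP5 was at 2.83, 0.827 and 1.18 FPKM after Pst hrcC, against 0.465, 0.364 and 0.484 FPKM in controls (limma adjusted p = 0.616). Here treated replicate 1 was the highest of all 6 libraries, and the groups still did not overlap. PROPEP6 was at 7.51, 3.47 and 6.48 FPKM after Pst hrcC, against 5.22, 3.55 and 3.85 FPKM in controls, and the groups overlapped. PROPEP2 was below the filter, at 1.25 and 0.138 FPKM and listed at 0 in the treated libraries and at 0.529, 0.143 and 0.124 FPKM in controls. MC4, far more abundant, averaged 61.0 ± 6.78 FPKM after Pst hrcC and 59.1 ± 3.48 FPKM in controls (SD, n = 3 each). With array weights PROPEP1 was the single gene of this list that passed (limma adjusted p = 0.0233).

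**Figure D3:**
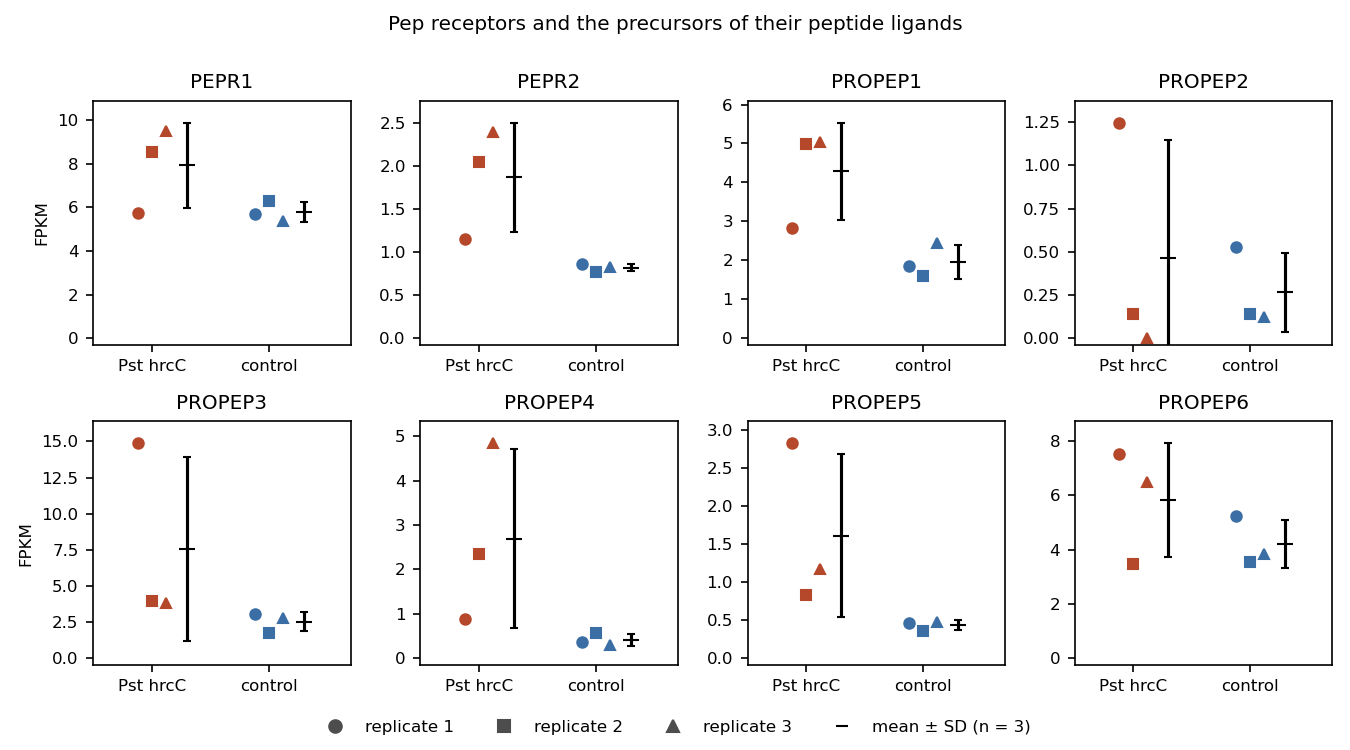
FPKM of the Pep receptors PEPR1 and PEPR2 and of 6 precursors of Pep peptides in each library, Pst hrcC left and control right, with replicates 1, 2 and 3 as circles, squares and triangles and the mean ± SD (n = 3) in black, the lower treated bar of PROPEP2 being cut at the axis. Treated replicate 1 is the lowest treated library for PEPR1, PEPR2, PROPEP1 and PROPEP4 and the highest library of all for PROPEP2, PROPEP3, PROPEP5 and PROPEP6.

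FLS2 was the single gene of the 10 with a negative difference. FLS2 (AT5G46330) binds flg22, a stretch of bacterial flagellin, and is the receptor through which Arabidopsis leaves and stomata respond to many bacteria. It was at 4.03, 2.59 and 1.60 FPKM in Pst hrcC replicates 1, 2 and 3, against 3.56, 3.03 and 3.79 FPKM in control replicates 1, 2 and 3. Treated replicates 2 and 3 were below every control, while treated replicate 1 was the highest of all 6 libraries, so the groups overlapped. The means were 2.74 ± 1.22 FPKM after Pst hrcC and 3.46 ± 0.39 FPKM in controls (SD, n = 3 each), and the log2 difference was -0.30 ± 0.25 (SE, 95% interval -0.89 to 0.28, limma adjusted p = 1.00). Leaving out single libraries moved the size of this value and not its sign. Without Pst hrcC replicate 3, the shallowest at about 37 fragments on FLS2, it was -0.07, and without Pst hrcC replicate 1 it was -0.54.

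All 5 guard cell markers had lower means after Pst hrcC, while the order of libraries differed among them. Summed over the 5 markers they were at 36.5, 26.5 and 26.1 FPKM in Pst hrcC replicates 1, 2 and 3, against 37.7, 43.7 and 35.3 FPKM in controls. Of the 4 tested, 0 were called with limma and 1 was lower at an unadjusted p under 0.05 (1.63% of all tested genes). All 4 had negative log2 differences, where 57.5% of all tested genes had positive ones. In 2 of the 4, MYB60 and KAT1, all treated values lay below all controls, as in 3.61% of all tested genes. MYB60, a transcription factor of guard cells, averaged 7.05 ± 0.89 FPKM after Pst hrcC and 9.08 ± 0.44 FPKM in controls (SD of n = 3, limma adjusted p = 0.716). KAT1, a potassium channel of guard cells, averaged 1.98 ± 0.43 FPKM after Pst hrcC and 2.58 ± 0.18 FPKM in controls (SD of n = 3, limma adjusted p = 0.916). The sum is carried mostly by GASA9, at 23.7, 15.8 and 11.3 FPKM after Pst hrcC, against 22.4, 26.3 and 19.9 FPKM in controls. FAMA, a transcription factor of guard cell formation, was highest of all libraries in Pst hrcC replicate 3, at 2.49, 2.44 and 4.23 FPKM after Pst hrcC, against 2.35, 3.73 and 3.35 FPKM in controls. SLAC1, an anion channel of guard cells below the filter, was at 0.879, 0.517 and 0.604 FPKM after Pst hrcC, against 1.47, 1.61 and 0.518 FPKM in controls. GASA9, FAMA and SLAC1 complete the list, and none of the 5 markers was at 0 in any library. Negative log2 differences were not particular to guard cell markers. Of the 6 photosynthetic tissue markers 5 were negative and 1 positive (median -0.08), and of 10 tested root markers 8 were positive and 2 negative. Neither list held a call in limma. The part of guard cells in the FLS2 values was not tested.

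The other receptors of bacterial molecules had the log2 differences nearest to 0 among the receptors. EFR (AT5G20480), which binds the elf18 stretch of elongation factor Tu, was at 1.49, 1.16 and 1.51 FPKM after Pst hrcC, against 1.47, 0.999 and 1.65 FPKM in controls. Its log2 difference of 0.02 ± 0.16 (SE, 95% interval -0.36 to 0.40, limma adjusted p = 1.00) changed sign under median-of-ratios scaling and quantile normalization. LORE (AT1G61380), an S-domain receptor kinase that senses medium-chain hydroxylated fatty acids of bacteria, was at 1.85, 1.43 and 3.12 FPKM after Pst hrcC, against 2.00, 1.50 and 2.19 FPKM in controls. Treated replicate 3 alone exceeded the controls, and without it the log2 difference was -0.13 in place of 0.08 ± 0.22 (SE, 95% interval -0.45 to 0.62, limma adjusted p = 1.00). In both genes the samples of replicate 2 were the lowest of their group.

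The LysM kinases, receptors of chitin from fungal walls, had positive differences and did not pass. LYK4 (AT2G23770), which takes part in the chitin receptor complex, was at 3.54, 4.58 and 4.74 FPKM after Pst hrcC, against 3.46, 4.07 and 3.46 FPKM in controls (log2 difference 0.18 ± 0.14, SE, 95% interval -0.17 to 0.52, limma adjusted p = 1.00). LYK5 (AT2G33580), the binding partner with high affinity for chitin, was at 1.30, 1.59 and 2.24 FPKM after Pst hrcC, against 0.881, 1.72 and 1.42 FPKM in controls (log2 difference 0.22 ± 0.20, SE, limma adjusted p = 1.00). CERK1 (AT3G21630), the kinase that signals for both, was at 2.85, 2.65 and 3.65 FPKM after Pst hrcC, against 2.85, 2.58 and 2.65 FPKM in controls (log2 difference 0.13 ± 0.14, SE, limma adjusted p = 1.00). In all 3 genes the highest library was Pst hrcC replicate 3 and the groups overlapped. Single libraries decided the size of these differences. Leaving out Pst hrcC replicate 3 gave 0.02 for CERK1 and 0.11 for LYK4. Leaving out another treated library gave 0.20 for CERK1 (replicate 2) and 0.28 for LYK4 (replicate 1). That of LYK5 was 0.08 without Pst hrcC replicate 3, 0.07 without control replicate 1, and 0.33 without either Pst hrcC replicate 1 or control replicate 2. The low value of LYK5 in control replicate 1 rests on about 17 fragments, the fewest of any value of the 10 genes. Set against CERK1 within each library, LYK4 was higher by 0.38 ± 0.20 after Pst hrcC and by 0.33 ± 0.15 in controls on the log2(FPKM + 1) scale (SD, n = 3 each, two-sided exact permutation p = 0.6). LYK5 was lower than CERK1 by the same measure, at -0.59 ± 0.14 after Pst hrcC and -0.67 ± 0.33 in controls (SD, n = 3 each, two-sided exact permutation p = 0.8).

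The shared partners BAK1 and BIK1 had overlapping groups and did not pass. BAK1 (AT4G33430), the co-receptor of FLS2, EFR and the Pep receptors and also of the brassinosteroid receptor BRI1, was at 6.69, 7.65 and 7.03 FPKM after Pst hrcC, against 4.91, 6.68 and 7.37 FPKM in controls. The control range enclosed 2 of the 3 treated values, and the low end was the shallow control replicate 1, without which the log2 difference of 0.16 ± 0.17 (SE, 95% interval -0.23 to 0.56, limma adjusted p = 1.00) was 0.02. BIK1 (AT2G39660), which is released from activated receptor complexes and phosphorylates the oxidase RBOHD, was at 9.37, 6.25 and 7.48 FPKM after Pst hrcC, against 6.84, 7.33 and 7.22 FPKM in controls. Its treated values lay on either side of the controls (log2 difference 0.08 ± 0.16, SE, 95% interval -0.30 to 0.47, limma adjusted p = 1.00), and without Pst hrcC replicate 1 the difference was -0.05.

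The balance of receptor to co-receptor was also compared within libraries. FLS2 relative to BAK1 was at -0.61, -1.27 and -1.63 on the log2(FPKM + 1) scale after Pst hrcC, against -0.37, -0.93 and -0.80 in controls. The group means differed by -0.47 (two-sided exact permutation p = 0.3, 0.72 adjusted over 6 ratios). This difference was -0.24 when Pst hrcC replicate 3 was left out, -0.75 when Pst hrcC replicate 1 was, and -0.30 when control replicate 1 was. EFR relative to BAK1 averaged -1.77 ± 0.20 after Pst hrcC and -1.62 ± 0.34 in controls (SD, n = 3 each, two-sided exact permutation p = 0.5). FLS2 exceeded EFR by 0.60 ± 0.49 after Pst hrcC and by 0.92 ± 0.08 in controls (SD, n = 3 each, two-sided exact permutation p = 0.4), with treated replicate 3, at 0.05, apart from the rest. The difference of -0.32 between these means was -0.05 without that library and -0.53 without Pst hrcC replicate 1.

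The size of the difference varied with the replicate number. Within same-numbered pairs the log2 difference of PEPR1 was 0.01, 0.38 and 0.72 for replicates 1, 2 and 3, and that of PEPR2 was 0.21, 0.78 and 0.89. The difference of FLS2 was 0.14, -0.17 and -0.88, and that of BIK1 0.40, -0.20 and 0.05. Of the 10, only LYK4, PEPR1 and PEPR2 were higher in all 3 pairs, LYK4 by 0.02 and PEPR1 by 0.01 in replicate 1. The labels do not state this pairing, and the share of all tested genes higher in all 3 pairs was not determined. Of the 10 genes 6 had their highest value in Pst hrcC replicate 3, as did 27.1% of all tested genes, and this was the shallowest library.

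**Figure D4:**
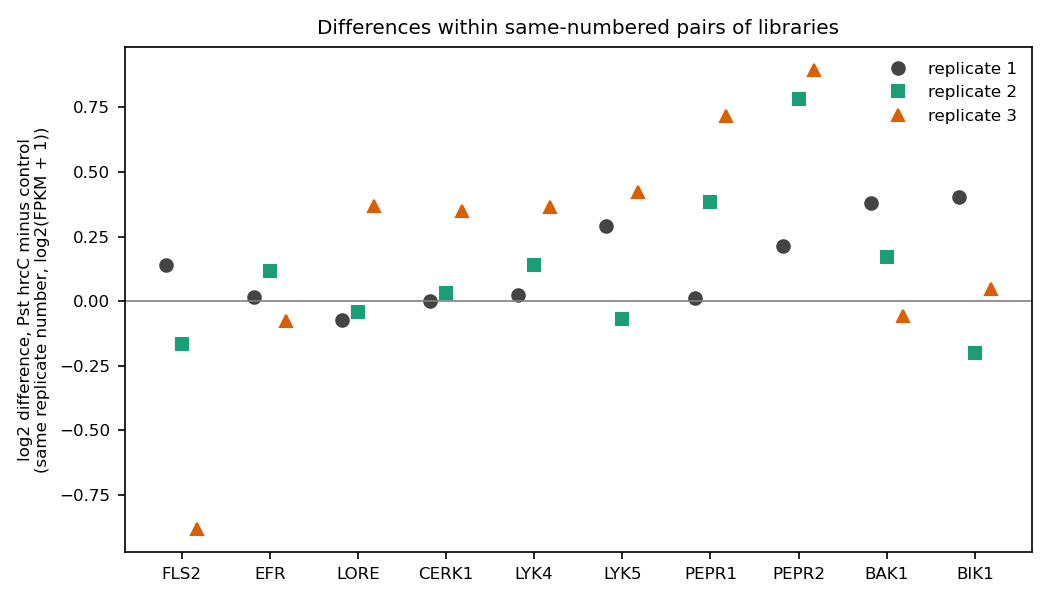
Log2 difference, Pst hrcC minus control, of each gene within libraries of the same replicate number on the log2(FPKM + 1) scale, with replicates 1, 2 and 3 as circles, squares and triangles. In replicate 1 the differences run from -0.08 (LORE) to 0.40 (BIK1), and in replicate 3 from -0.88 (FLS2) to 0.89 (PEPR2).

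Early pattern-response genes, the usual transcript readout of receptor activation, put treated replicate 1 apart in the other direction. The 11 genes summed to 86.2, 24.5 and 23.5 FPKM in Pst hrcC replicates 1, 2 and 3, against 46.8, 27.0 and 31.5 FPKM in controls. Replicate 1 thus had the highest sum in both groups, so a high sum was not particular to the treated library. Of 9 tested, 8 were highest in Pst hrcC replicate 1, as were 18.5% of all tested genes. With limma 0 were called and 0 had an unadjusted p under 0.05, where 5.18% of all tested genes were higher and 1.63% lower. WRKY33, a transcription factor of camalexin synthesis, was at 16.4, 7.47 and 7.06 FPKM after Pst hrcC, against 4.42, 5.17 and 7.02 FPKM in controls (limma adjusted p = 0.813). PHI-1, a gene induced by flg22, was at 10.3, 3.62 and 2.09 FPKM after Pst hrcC, against 20.5, 5.77 and 8.81 FPKM in controls (limma adjusted p = 0.936). The gene most used to report flg22 perception, FRK1, chosen after its values were seen, was below the filter at 0.579, 0.155 and 0.548 FPKM after Pst hrcC and 0.138, 0.028 and 0.048 FPKM in controls.

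The rest of the receptor system gave 0 calls in limma over all genes in each of 7 lists (the Pep precursors and early genes above among them). Among 16 tested of 20 other pattern receptors, an unadjusted p under 0.05 was found for 3 higher and 0 lower (5.18% and 1.63% of all tested genes), and the median log2 difference was 0.10. DORN1 (AT5G60300), a lectin receptor kinase that senses extracellular ATP, another danger signal, was at 7.84, 14.6 and 16.8 FPKM after Pst hrcC, against 4.77, 4.94 and 4.40 FPKM in controls. Its log2 difference was 1.24 ± 0.27 (SE, limma adjusted p = 0.219), and it passed without Pst hrcC replicate 1 (1.55, limma adjusted p = 0.0132), without both libraries of replicate 1 (1.56, limma adjusted p = 0.0258) and with array weights (limma adjusted p = 0.0146). RLK7 (AT1G09970), the receptor of PIP peptides, was at 54.9, 61.0 and 69.7 FPKM after Pst hrcC, against 41.6, 35.1 and 40.9 FPKM in controls (log2 difference 0.64 ± 0.16, SE, limma adjusted p = 0.318). In DORN1 and RLK7 all treated values lay above all controls, as in 4 of the 16 tested and in 7.66% of all tested genes.

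Among 12 tested of 13 receptor-like cytoplasmic kinases, the class of BIK1, 3 had an unadjusted p under 0.05, all higher (5.18% of all tested genes), and the median log2 difference was 0.02. PCRK1 (AT3G09830), a kinase of pattern signalling, was at 4.94, 6.80 and 6.18 FPKM after Pst hrcC, against 2.85, 2.68 and 3.50 FPKM in controls (log2 difference 0.79 ± 0.16, SE, limma adjusted p = 0.181). PBL2 (AT1G14370), a relative of BIK1, was at 2.76, 2.90 and 2.99 FPKM after Pst hrcC, against 1.46, 1.67 and 1.85 FPKM in controls (log2 difference 0.55 ± 0.12, SE, limma adjusted p = 0.244). All treated values lay above all controls in both genes, as in 7.66% of all tested genes, and each passed with array weights (limma adjusted p = 0.0124 for PCRK1 and 0.0338 for PBL2) and in no other alternative. PBL1, the closest relative of BIK1 and chosen after its values were seen, averaged 12.5 ± 5.65 FPKM after Pst hrcC and 10.2 ± 5.29 FPKM in controls (SD of n = 3, limma adjusted p = 1.00). Replicate 1 was the lowest in both groups, at 6.26 FPKM after Pst hrcC and 4.25 FPKM in controls. PBL1 was higher after Pst hrcC in all 3 same-numbered pairs.

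The 13 co-receptors and complex partners of the list were all tested, with a median log2 difference of 0.15. In limma 0 had an unadjusted p under 0.05, where 5.18% of all tested genes were higher and 1.63% lower. SERK2, a co-receptor of the BAK1 family, averaged 3.69 ± 0.49 FPKM after Pst hrcC and 2.77 ± 0.21 FPKM in controls (SD of n = 3, limma adjusted p = 0.754). SERK5, of the same family, lay between 2.08 and 2.41 FPKM after Pst hrcC and between 1.59 and 2.08 FPKM in controls (limma adjusted p = 1.00). In the list of turnover and restraint 1 of 15 was higher at an unadjusted p under 0.05 and 0 were lower, with a median of 0.07. This count is near the shares of all tested genes (5.18% higher and 1.63% lower). The 1 higher gene was PUB23, a ubiquitin ligase that dampens pattern responses. It was at 10.5, 6.04 and 10.8 FPKM after Pst hrcC, against 6.12, 4.99 and 4.61 FPKM in controls (limma adjusted p = 0.599). RCN1, a scaffold subunit of protein phosphatase PP2A, averaged 3.73 ± 0.18 FPKM after Pst hrcC and 4.79 ± 0.64 FPKM in controls (SD of n = 3, limma adjusted p = 0.825). In 2 of the 15, RCN1 and PUB25, all treated values lay below all controls, as in 3.61% of all tested genes. In 0 of the 15 they lay above all controls, as in 7.66% of all tested genes.

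Genes of receptor maturation in the endoplasmic reticulum, where EFR in particular depends on chaperones, had positive differences in 10 of 10, beside 57.5% of all tested genes. Of these, 0 were called with limma, 1 was higher at an unadjusted p under 0.05 (5.18% of all tested genes), and the median log2 difference was 0.29. SDF2, a subunit of the chaperone complex that EFR needs, averaged 10.5 ± 1.92 FPKM after Pst hrcC and 7.37 ± 1.34 FPKM in controls (SD of n = 3, limma adjusted p = 0.700). STT3A, a subunit of the enzyme that attaches N-glycans, averaged 2.81 ± 0.19 FPKM after Pst hrcC and 2.15 ± 0.09 FPKM in controls (SD of n = 3, limma adjusted p = 0.742). For 7 of the 10 the highest library was Pst hrcC replicate 3, as it was for 27.1% of all tested genes.

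**Figure D5:**
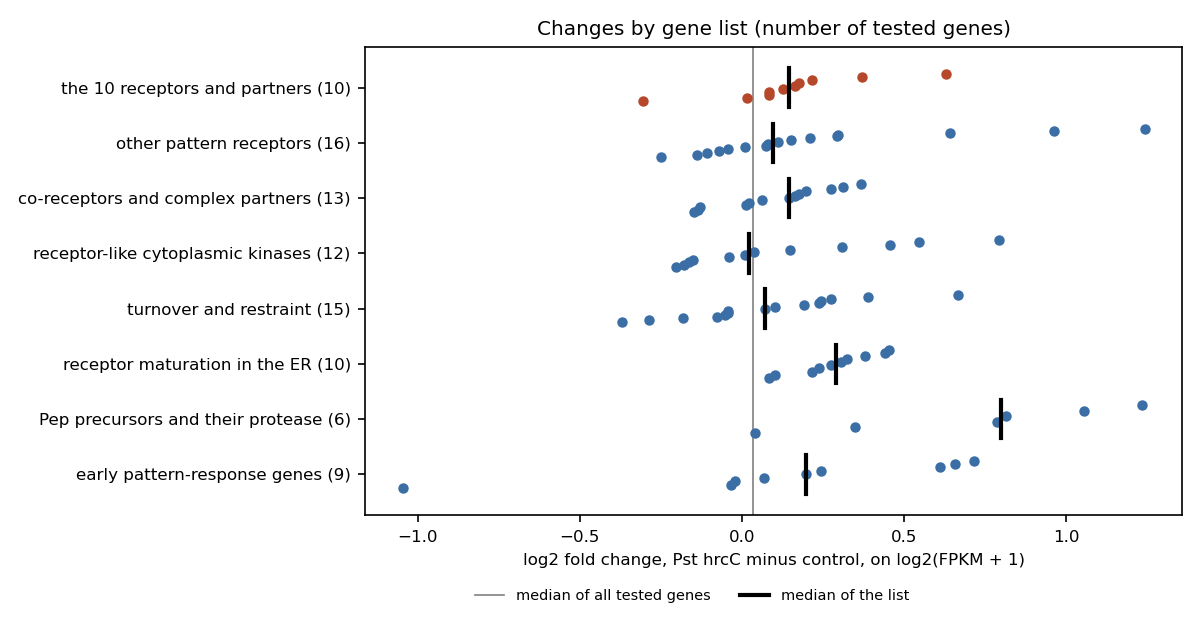
Log2 fold change, Pst hrcC minus control, of each tested gene (points) in the 10 receptors and partners and in 7 lists of related genes on the log2(FPKM + 1) scale, with the median of each list (black bar) and the median of all tested genes (grey line). The median is 0.80 for the Pep precursors and their protease, where 0 of 6 genes passed, and between 0.02 and 0.29 for the other lists. Of these 6, PROPEP4 and PROPEP5 were among the tested genes only through their treated libraries.

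Over all tested genes the pattern most like that of PEPR2 was found by the root mean square difference of log2(FPKM + 1), centred on each gene's mean, over the 6 libraries. The nearest were UGT71B1 (AT3G21750, 0.057), a glucosyltransferase, JAL22 (AT2G39310, 0.060), a jacalin-related lectin, and AT5G14700 (0.062). UGT71B1 was at 15.2, 21.6 and 23.0 FPKM after Pst hrcC, against 13.0, 13.2 and 13.2 FPKM in controls (limma adjusted p = 0.550). Of the receptor system, RLK7 ranked 39, PEPR1 70, PROPEP1 85 and PCRK1 104 among 16922 genes by this measure.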

How the data were processed

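The authors deposited 1 table of FPKM values with a column per library. Per the submitters' processing notes, FastQC, TopHat2 2.1.1 and Cufflinks 2.2.1 were used with the TAIR10 build. Their settings, strand and annotation are unknown here. Groups and replicate numbers came from the sample titles. The labels do not state that replicates are separate cultures. The p-values therefore describe the spread between these libraries, which may be technical.

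limma 3.58.1 (R 4.3.3) was fitted to log2(FPKM + 1) of the 16923 genes that averaged 1 FPKM or more (10448 were left out), with an intensity trend, treatment as the only term and 4 residual degrees of freedom, two-sided, at a Benjamini-Hochberg adjusted p of 0.05. Fold changes on this scale understate those of low genes. Errors are SD for levels and SE from limma. Single ratios were compared by exact permutation. Scripts were tested on simulated data.

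FPKM holds no counts. Depth and fragments per gene are approximate, read from the peak of FPKM times annotated length at 1 fragment, and cover counting error only. Symbols, lengths and overlaps came from RefSeq's TAIR10.1, which is not the build of the notes, so no coordinates or sequences are printed.

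The 10 genes, the lists and the tests were chosen with earlier results of these data known. Named genes are the 10, the 2 with the smallest p in each related list, and the 3 nearest in pattern to the gene of the 10 with the smallest p. Other named genes were chosen after their values were seen. As a check of pairing, each library's deviation from its group mean was correlated with that of the same number in the other group. The correlations were 0.43, 0.17 and 0.13 for replicates 1, 2 and 3. This led to the numbers being treated as pairs, a choice the labels do not state. Pairing was used only for the differences within same-numbered pairs and in the alternative fit with a replicate block. The main limma fit was unpaired. Pst hrcC replicate 2 correlated more strongly with control replicate 3 (0.21) than with control replicate 2, so for replicates 2 and 3 these values do not favour pairing by number.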

Additional observations from a re-analysis of the deposited data

How the results depend on the processing

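In 16 alternatives the number of the 10 genes that changed was 0, except 1 (PEPR2) with array weights. A minimum mean of 5 FPKM left 3 of them to test. With the replicate block (paired by number) 0 of the 10 and 47 of all genes changed, and no call of a list differed. All genes changed numbered 17 with a pseudocount of 5, 2 with no filter on low values, 407 with array weights, 182 without both libraries of replicate 1, and between 2 and 180 without 1 library (180 without Pst hrcC replicate 1, 19 without control replicate 1, 2 or 3 without any other). With array weights 2 other pattern receptors, 2 cytoplasmic kinases and 1 Pep precursor changed. Of the other pattern receptors 1 changed without both libraries of replicate 1, and between 0 and 1 without 1 library. Signs turned for values that passed in no fit. The log2 difference of EFR was -0.0137 under median-of-ratios scaling, -0.0553 under quantile normalization and from -0.10 to 0.10 without 1 library. That of BIK1 was -0.0552 with array weights, -0.0769 without both libraries of replicate 1 and from -0.05 to 0.21 without 1 library, and that of LORE from -0.13 to 0.25. RBCS1A, a leaf marker, was at -0.56 under quantile normalization. In FPKM, EFR differed by -0.0327 under median-of-ratios scaling. Without 1 library the FPKM difference ran from -0.170 to 0.155 for EFR, from -0.263 to 1.29 for BIK1 and from -0.260 to 0.587 for LORE. The log2 ratio difference then ran from -0.308 to 0.0340 for EFR over BAK1, from -0.0907 to 0.229 for LYK5 over CERK1 and from -0.0639 to 0.133 for LYK4 over CERK1. That of PEPR1 over PEPR2 was 0.0145 with a pseudocount of 5. The cause of these shifts was not tested.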
